A study of Mus musculus with 6 samples.

Results

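The regions described here are promoters at which chromatin was open in every library of the study. They were chosen from the measured peak lists by a fixed rule. Overlapping or touching peaks of the 6 lists were joined on chromosomes 1 to 19, and a joined region was kept when it was under 5000 bp wide, held a peak of each library and contained an annotated transcription start of a protein-coding gene. Of 225467 joined regions, 48805 (21.6%) were called in all 6 libraries, 11928 of these contained a start, and 11267 met the whole rule. These 11267 promoter regions made up 5.0% of all joined regions, and 12040 of 20807 protein-coding genes (57.9%) had a start in at least 1 of them.

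Th9, Th2 and Th17 cells are helper T cell subsets, of which Th9 and Th17 are named for the cytokine they secrete, IL-9 and IL-17. The chromatin was that of naive CD4 T cells from C57BL6/J mouse spleen, cultured with anti-CD3 and anti-CD28 and collected on day 5. The methods also give lymph nodes as a source, and wild-type mice of both sexes aged 8 to 16 weeks. Th2 cultures received IL-4, human IL-2 and an antibody to IFN-γ, and Th9 cultures received the same with human TGF-β1. Th17 cultures received IL-6, TGF-β1, IL-23 and IL-1β with antibodies to IFN-γ, IL-4 and IL-2. Each subset had 2 libraries, replicates 1 and 3, made by ATAC-seq, in which the transposase Tn5 inserts adapters into accessible DNA. The labels do not say whether replicates came from separate mice, so p-values measure the spread between these libraries, which may be technical.

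A promoter is the stretch around a transcription start where the polymerase and general factors assemble. Many mammalian promoters are CpG islands, rich in G and C and in the CpG dinucleotide, and these tend to lie free of nucleosomes in most cell types. Promoters poor in CpG belong more often to genes of particular cell types and open with the factors of that cell.

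The measure of openness was the fold enrichment of the highest peak of a region in each library, which is an average over the peak. Its percentile within that library's whole list was used. A percentile of 90 means that 90% of the peaks of that list had the same or a lower fold. The lists held 100317 to 142213 peaks and no read counts, and the lowest fold called was 2.11 in Th9 replicate 1 against 1.71 to 1.83 in the other 5 libraries. Depth per region is therefore unknown, and no interval for counting error is given. The rule itself used where peaks were called, the width of the joined region and the annotated starts, and no fold. Presence in all libraries is therefore not a finding. The widest regions inside the limit, at Bccip and Uros (4998 bp), Atp5j and Gabpa (4997 bp) and Dalrd3 and Ndufaf3 (4994 bp), had percentiles of 89.3 to 99.8. Just outside it, Gm7954 (5001 bp), Gm3739 and Olfr433 (both 5004 bp) had 41.6 to 96.8, and the 661 promoter regions of 5000 bp or more had medians of 87.9 to 92.3. Another 470 regions with a start were called in 5 of 6 libraries, with a median percentile of 46.0 where called, and 196 of them lacked a peak in Th17 replicate 3.

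The sequences show how CpG content varied among these promoters. The 150 bases before the annotated start are shown for 2 promoters near the top of every list and for 4 that differed between subsets, 5′ to 3′ on the strand of the gene, in the mm10 build, with each CpG in capitals. None of these stretches overlaps an annotated exon. Hsd17b12 encodes an enzyme of fatty acid elongation and Rplp0 a protein of the large ribosomal subunit, and their stretches held 9 and 13 CpG. Those of Vcam1, Elmo1, Ccr8 and Gcnt1 held 0, 0, 1 and 1. Stretches not shown did not all follow this split. Those of Limch1, Dlgap2 and Uaca, among the lowest promoters by mean percentile, held 22, 18 and 15 CpG. Those of Gss, Tagln3 and Zfp948, which differed between subsets, held 7, 6 and 5.
Hsd17b12 (chr2:94157965-94158114, minus strand): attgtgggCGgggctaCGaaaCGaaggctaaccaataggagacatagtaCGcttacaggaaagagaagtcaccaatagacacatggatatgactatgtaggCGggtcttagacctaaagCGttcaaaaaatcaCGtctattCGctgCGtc
Rplp0 (chr5:115559317-115559466, plus strand): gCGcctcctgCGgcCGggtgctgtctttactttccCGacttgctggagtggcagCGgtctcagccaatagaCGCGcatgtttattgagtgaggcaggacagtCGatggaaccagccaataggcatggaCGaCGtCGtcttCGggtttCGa
Vcam1 (chr3:116129689-116129838, minus strand): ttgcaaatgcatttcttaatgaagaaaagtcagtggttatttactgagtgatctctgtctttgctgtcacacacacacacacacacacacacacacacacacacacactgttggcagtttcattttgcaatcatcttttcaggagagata
Elmo1 (chr13:20111362-20111511, plus strand): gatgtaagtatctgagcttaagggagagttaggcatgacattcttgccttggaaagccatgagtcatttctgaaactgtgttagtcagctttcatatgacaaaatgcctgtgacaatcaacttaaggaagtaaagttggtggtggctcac
Ccr8 (chr9:120091964-120092113, plus strand): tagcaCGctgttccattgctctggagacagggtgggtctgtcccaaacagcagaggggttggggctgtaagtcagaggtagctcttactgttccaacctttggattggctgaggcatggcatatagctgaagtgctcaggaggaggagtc
Gcnt1 (chr19:17339569-17339718, minus strand): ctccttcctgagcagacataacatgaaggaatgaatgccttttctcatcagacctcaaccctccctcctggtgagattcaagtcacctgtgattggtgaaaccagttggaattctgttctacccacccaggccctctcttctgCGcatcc

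The promoter regions ranked near the top of every list. Their median percentile was 93.7 and 92.4 in Th9 replicates 1 and 3, 92.1 and 91.6 in the Th2 libraries, and 93.2 and 92.0 in those of Th17. The 35694 other regions under 5000 bp that were called in all 6 libraries and contained no protein-coding start, called distal here, had medians of 75.3 and 64.9, 75.3 and 68.4, and 73.2 and 66.9. The difference was 21.8 ± 4.12 percentile points (SD, n = 6 libraries), with promoters higher in 6 of 6 (two-sided exact sign-flip permutation test over libraries, p = 0.031, the smallest that 6 libraries can give; 0.031 also after Benjamini-Hochberg adjustment over the 4 tests of this kind). Between 56.2% and 65.9% of promoter regions stood at or above the 90th percentile of a list, against 7.24% to 16.96% of distal regions.

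**Figure D1:**
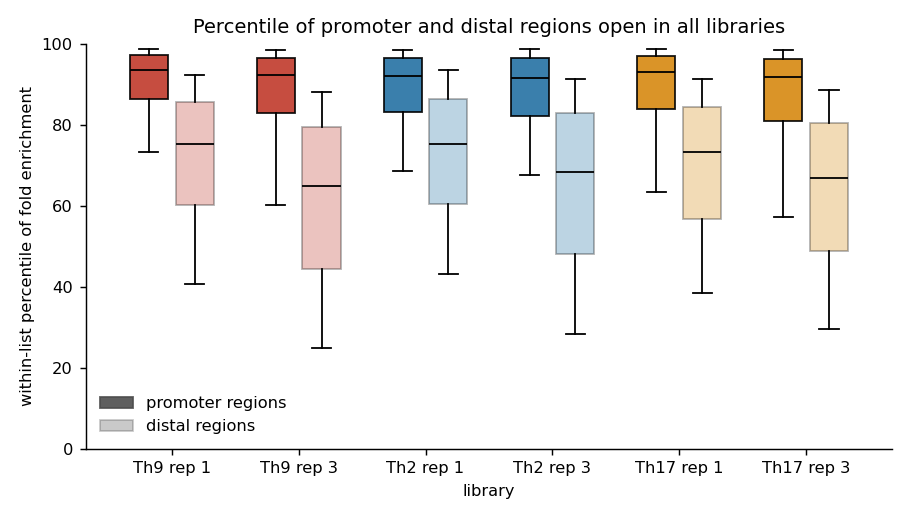
Within-list percentile of fold enrichment (vertical axis, 0 to 100) for the 11267 promoter regions (dark boxes) and 35694 distal regions (pale boxes) in each of the 6 libraries. Boxes span the 25th to 75th percentile of the regions with the median as a line, and whiskers the 10th to 90th; promoter medians lie between 91.6 and 93.7 and distal medians between 64.9 and 75.3.

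Promoter peaks were also wider. The highest peak of a promoter region had a median width of 1228 and 1348 bp in Th9, 1462 and 1611 bp in Th2 and 1249 and 1338 bp in Th17, against 633 to 810 bp for distal regions. The difference was 658 ± 89.3 bp (SD, n = 6), in the same direction in 6 of 6 libraries (two-sided exact sign-flip permutation test, p = 0.031). Width is tied to the rule, since a wider region is more likely to contain a start. How much of the difference comes from this was not tested, so the p-value does not set promoters apart by width. Peaks were wider in both Th2 libraries than in the other 4. The joined regions had a median width of 1839 bp, with 690 bp before the start and 1014 bp after it. Peak midpoints lay past the start in 67.5% to 69.1% of regions. Over all regions, those with a midpoint before the start included, the median midpoint lay 104.5 to 134 bp into the gene. The annotated start lay under a peak of all 6 libraries in 10194 regions (90.5%), and 9663 (85.8%) held exactly 1 peak per library.

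At the top were promoters whose percentile was at least 99.8 in every library. By mean percentile the 5 highest were Zfp317, a zinc finger gene, Dtwd2, an enzyme of tRNA modification, Hsd17b12, the shared promoter of Pdcd10 and Serpini1, and Cetn3, which encodes the centrosomal protein centrin 3. The 5 lowest were Dlgap2, a gene of neuronal synapses, Wdfy3, Uaca, Serpina1a, which encodes the liver protein alpha-1 antitrypsin, and Limch1. Their values scattered. Dlgap2 stood at 4.7 and 23.0 in Th9, at 16.99 and 8.1 in Th2, and in Th17 at 0.3 and 2.6, and Wdfy3 at 34.2 and 5.7, 18.2 and 4.8, and 8.8 and 2.4. The start lay under a peak in 4 libraries at Dlgap2, in 3 at Serpina1a, in 2 at Uaca and Limch1 and in 1 at Wdfy3. Of all promoter regions, 2.49% to 7.36% fell below the 50th percentile of a list.

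CpG content went with rank. A promoter was called CpG-rich when the 500 bp around its start had at least 55% GC and a ratio of observed to expected CpG of at least 0.65. By this measure 7833 of the 11267 regions (69.5%) were CpG-rich, against 44.6% when 1 start was taken for each of the 20807 protein-coding genes. CpG-rich promoters had median percentiles of 95 and 94.3 in Th9, of 93.6 and 93.3 in Th2, and in Th17 of 94.7 and 93.7, and CpG-poor promoters 88.7 and 84.8, 86.7 and 85.4, and 87.2 and 84.5. The difference was 7.91 ± 1.25 points (SD, n = 6) and was positive in 6 of 6 libraries (two-sided exact sign-flip permutation test, p = 0.031). Dlgap2, Uaca and Limch1, among the lowest promoters by mean percentile, were nonetheless CpG-rich. The relation with GC content alone was not monotonic. The median over regions of the mean percentile was 81.9 at 45% GC or less (220 regions), rose to 94.3 between 65% and 70% (2324 regions) and was 91.5 above 75% (816 regions). Across the 11267 regions, which are not independent replicates and share their libraries, Spearman's rho with mean percentile was 0.36 for the CpG ratio, 0.16 for GC content and 0.19 for width.

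Promoters that serve genes on both strands ranked higher still. The 1063 regions (9.43%) with protein-coding starts on both strands, called divergent, had median percentiles of 95.4 to 96.7, and the 10204 with starts on 1 strand 91.0 to 93.1. The difference was 4.27 ± 0.408 points (SD, n = 6), positive in 6 of 6 libraries (two-sided exact sign-flip permutation test, p = 0.031). With peaks of -log10 q of at least 5 it was 7.02 points.

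**Figure D2:**
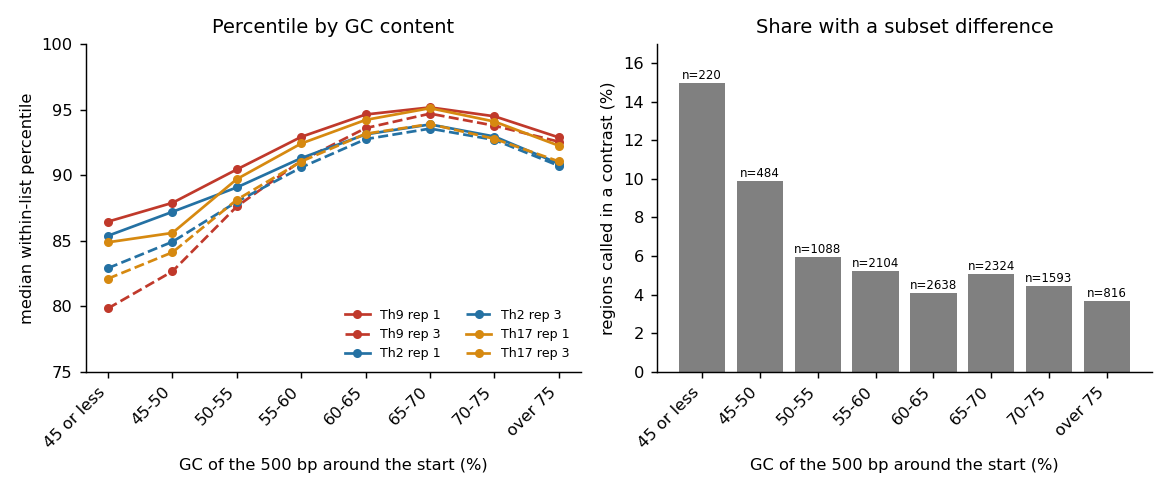
Left, median within-list percentile (vertical axis, shown from 75 to 100) of promoter regions by GC content of the 500 bp around the start, 1 line per library. Right, share of the regions in each class (percent, with the number of regions above each bar) called different between at least 1 pair of subsets. Percentile is lowest and the share called highest, at 15%, in the class of 45% GC or less.

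Short sequence words known from core promoters were counted in the window from 250 bp before to 50 bp after the start, on both strands. A match is a description and not a site. No word searched contains another. The Sp and KLF word GGGCGGG was found in 48.7% of the promoter regions against 33.8% of all 20807 promoters, the ETS word CCGGAAG in 17.2% against 11.4%, the NF-Y word CCAATCA in 10.4% against 8.64%, the E-box CACGTG in 10.3% against 7.82%, the CREB and ATF word TGACGTCA in 3.52% against 2.46%, the NRF1 word GCGCATGCG in 3.33% against 2.21% and the YY1 word AAGATGGCG in 2.87% against 1.88%. Words of CpG-poor promoters were rarer in these regions than in all promoters. The TATA word TATAAA was found in 6.66% against 12.5%, the GATA word AGATAA in 5.77% against 9.68%, the AP-1 and BATF word TGANTCA in 4.59% against 6.62%, the STAT word TTCNNNGAA in 6.60% against 7.88% and the RUNX word TGTGGTT in 3.65% against 4.96%. Within CpG-rich promoters, those with the NF-Y word had a median of the mean percentile of 96.1 against 93.8 without it, those with the NRF1 word 96.2 against 94.0 and those with the ETS word 95.1 against 93.7, and those with the TATA word 92.9 against 94.2. Each of these 4 differences had the same sign in 6 of 6 libraries; no test was made.

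Gene groups fell in different parts of the range, beside a median of 92.3 over all promoter regions. Housekeeping lists stood above it. All 31 listed genes of DNA replication, all 33 proteasome subunits, all 56 nuclear-encoded subunits of the respiratory chain and all 19 annotated aminoacyl tRNA synthetases had a start in a promoter region, with median mean percentiles of 95.8, 95.3, 95.8 and 95.1. The 17 of 18 genes of sterol synthesis had the highest, 97.4, and 71 of 76 genes of cytoplasmic ribosomal proteins had 94.6 and 76 of 77 of mitochondrial ribosomal proteins 94.0. The 17 glycolysis genes had 92.5.

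Most lists of T cell genes stood lower. T cell receptor signalling genes, the coreceptors, kinases and adaptors next to the antigen receptor, were members for 15 of 18, with a median of 80.9, and 1 of their 15 regions was CpG-rich. Thy1 was lowest at a mean of 72.1 and Fyn highest at 93.6, and the shared region of Cd3d and Cd3g was at 73.0. T helper transcription factors were members for 20 of 25 with a median of 89.2, from Tcf7 at 72.9 to Stat3 at 98.8, and 15 of their 21 regions were CpG-rich. Receptors for cytokines and chemokines were members for 18 of 26 with a median of 88.5, from Il17rb at 60.3 to Ifngr1 at 99.3. Interferon response genes were members for 14 of 17 with a median of 88.9. Feedback inhibitors of cytokine signalling were members for 7 of 9 and stood higher, with a median of 95.1. The 5000 bp limit alone kept out the transcription factors Gata3, Bcl6, Foxo1 and Junb and the receptors Il4ra, Il21r, Il12rb1 and Ccr7. It also kept out the inhibitors Cish and Socs1, the interferon response genes Mx1 and Usp18, and Cd5 and Lcp2. Their starts lay in wider regions called in all 6 libraries. Of 16 T helper cytokine genes, 6 were members, Il2, Il21, Il24, Tnf, Lta and Areg, with a median of 87.4. The starts of Il4, Il9, Il10, Il13, Il17a, Il17f and Csf2 lay in a peak of some library but in no member, and those of Il3, Il5 and Ifng in none.

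Developmental transcription factors of the Hox, Pax, Sox and Nkx families, which pattern the embryo, were members for 32 of 80. Their 33 regions had the lowest median, 56.9, although 23 were CpG-rich. They ran from Pax2 at a mean of 25.4 to Sox12 at 89.9. Of the markers of other cell types, 0 of 6 B cell genes, 1 of 6 myeloid genes, 2 of 6 NK and CD8 T cell genes and 5 of 10 non-lymphoid genes were members. Their summed level cannot be given from peak lists. The highest of them were Epcam at 88.7 and Col1a1 at 86.2, whose starts lay under a peak in 1 library each, and the defining B cell genes Cd79a, Ms4a1 and Pax5 and the myeloid genes Csf1r, Lyz2, Itgam and Fcgr1 had no peak at the start in any library.

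**Figure D3:**
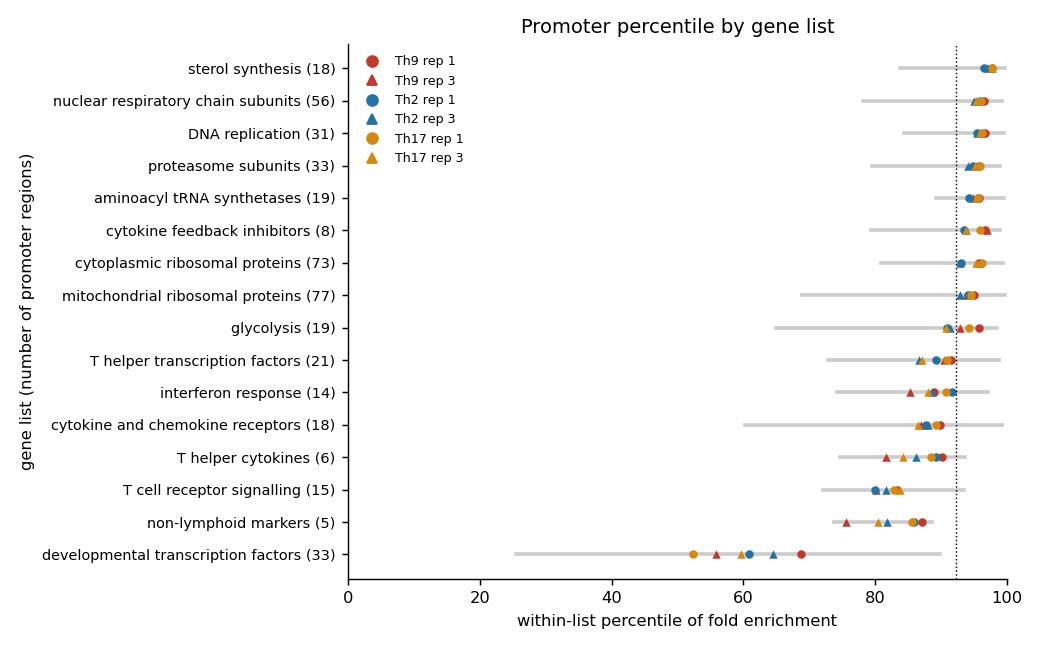
Within-list percentile of fold enrichment (horizontal axis, 0 to 100) for gene lists with at least 5 promoter regions, whose number is given after each name. Points are the median of the list in each library, grey bars run from the lowest to the highest mean percentile of its regions, and the dotted line marks the median of all promoter regions, 92.3; developmental transcription factors lie lowest, with library medians of 52.4 to 68.7.

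Agreement of promoter rank was compared within and between subsets. The mean absolute difference of percentile over the 11267 regions came to 5.04 for the Th9 pair of libraries, 3.12 for Th2 and 3.75 for Th17, or 3.97 ± 0.978 (SD, n = 3 pairs). For the 12 pairs of different subsets it was 4.93 ± 0.593 and ran from 3.93 to 5.98, and 7 of these 12 lay below the Th9 pair. The difference of 0.956 points gave p = 0.067 (exact permutation test, one-sided, with 15 arrangements of the libraries in pairs), which is the smallest p that this design allows. Without 1 library the difference lay between 0.548, without Th2 replicate 3, and 1.59, without Th9 replicate 1, and with peaks of -log10 q of at least 5 it was 0.819 (same exact permutation test, p = 0.27). Th9 replicate 1 was closer to Th2 replicate 1, at 3.93, than to Th9 replicate 3.

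To ask which promoters differed in rank between subsets, log2 fold enrichment was scaled to the same distribution in all libraries by quantile normalisation and fitted with limma over all 48805 regions called in every library, with Benjamini-Hochberg adjustment over all of them and a threshold of 0.05. Of the 11267 promoter regions, 583 (5.17%) were called in at least 1 of the 3 contrasts, against a background of 11.9% of all regions tested. Promoters were thus called less often than the regions they were tested with. Of the 583, 449 were called in 1 contrast, 133 in 2 and 1, the region of Hbb-bt, in all 3. The contrasts share libraries and are given side by side. The values of 95% of promoter regions lay within 0.583 of 0 on the log2 scale for Th9 against Th2, 0.498 for Th9 against Th17 and 0.538 for Th2 against Th17, and 11, 26 and 34 regions differed by at least 1.

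Over the 3 contrasts together, CpG-poor promoters were called more often. Of CpG-poor promoters 7.43% (255 of 3434) were called and of CpG-rich ones 4.19% (328 of 7833), and the share fell from 15% at 45% GC or less to 3.68% above 75%. This did not hold in each direction, since 145 of the 203 regions higher in Th9 than Th2 and 108 of the 164 lower in Th2 than Th17 were CpG-rich, close to the 69.5% of all promoter regions. Divergent promoters were called in 3.29% and those with starts on 1 strand in 5.37%. Of the 23 distinct regions named below as the largest differences, 20 were CpG-poor, and in 15 the start lay under a peak of all 6 libraries. The start lay under a peak in 5 libraries at Trim6 and Disp1, in 4 at Vcam1 and Hsdl1, in 3 at Hbb-bt, Pdcd1lg2 and Tha1 and in 1 at Msc. Several belong to genes with another start in a different promoter region, and 444 genes had 2 or more such regions. At Pcgf5, which encodes a Polycomb ring finger protein, a CpG-poor region within the gene differed between subsets, while its CpG-rich regions at 36346922 to 36351201 and 36409109 to 36410486 of chromosome 19 stood at 84.1 to 89.0 and 97.8 to 99.0 over the 6 libraries. The CpG-rich promoter that Hsdl1 shares with Dnaaf1 stood at 94.9 to 97.1 and the CpG-rich promoter of Disp1 at 89.6 to 92.1, beside CpG-poor starts of both genes that were among the largest differences. In none of these 4 CpG-rich regions did a contrast pass the test, with adjusted p from 0.398 to 0.995. The CpG-rich start of Gcnt1 stood at 76.4 and 71.5 in Th9, at 62.3 and 65.5 in Th2, and in Th17 at 89.8 and 84.0 and was called lower in Th2 than Th17 (-0.91, adjusted p = 0.0071), as was its CpG-poor start.

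**Figure D4:**
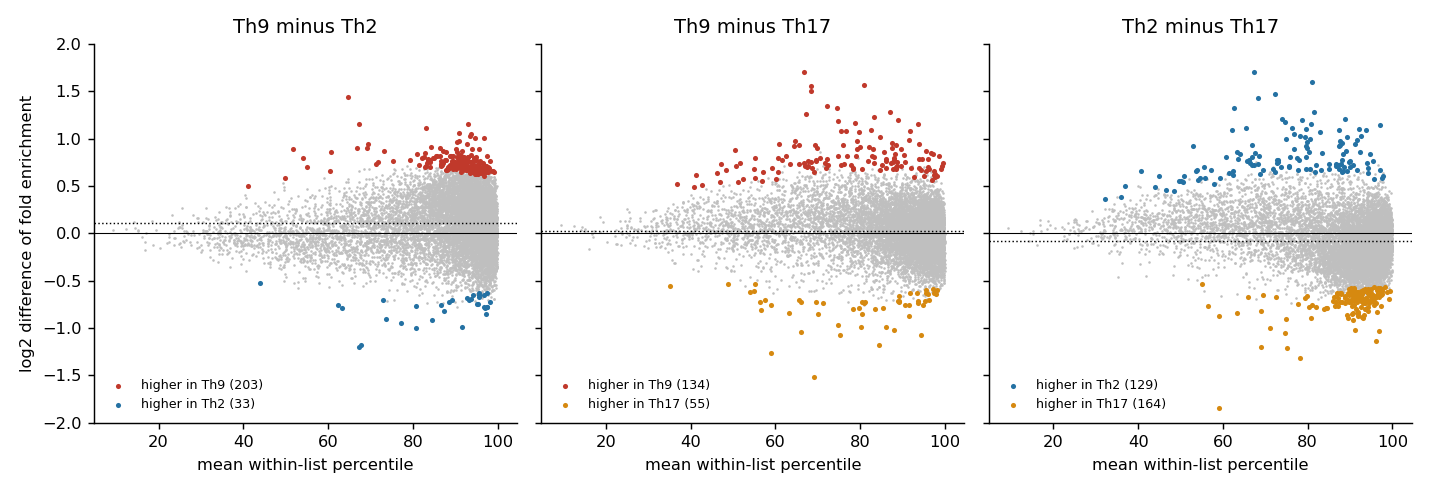
Log2 difference of fold enrichment between subsets (vertical axis) against mean within-list percentile (horizontal axis) for the 11267 promoter regions, 1 panel per contrast. Coloured points passed limma's test at an adjusted p under 0.05, with their number in each direction; the dotted line is the median difference of all promoter regions, 0.11, 0.03 and -0.08 from left to right.

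Between Th9 and Th2, 203 promoter regions were higher in Th9 and 33 were lower, against backgrounds of 1.10% and 2.26% of all regions tested. As shares of the promoter regions these were 1.80% and 0.293%. This split rested on the scaling. The median promoter region was 0.11 higher in Th9 on the log2 scale, while the other regions had a median of 0.00, and when promoters were scaled among themselves, 51 were higher in Th9 and 104 lower. With the GC content of the region removed the counts were 101 and 53, with median centring 301 and 13, and with normal scores 46 and 15. Leaving out Th9 replicate 1, Th9 replicate 3, Th2 replicate 1, Th2 replicate 3, Th17 replicate 1 and Th17 replicate 3 gave 61, 15, 57, 95, 40 and 36 regions higher and 25, 2, 25, 10, 9 and 8 lower. The predominant direction between Th9 and Th2 thus depended on the scaling, and the differences below stand beside the shift of 0.11.

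The 5 largest differences in favour of Th9 were at Vcam1, Tmed1, Gss, Ednrb and Slc25a20. Vcam1, an adhesion molecule bound by integrins of leukocytes, stood at percentiles 94.7 and 83.8 in Th9, 45.8 and 31.1 in Th2, and in Th17 at 57.9 and 74.9, so Th9 lay above the other 4 libraries. The log2 difference from Th2 was 1.44 ± 0.23 (SE, n = 2 per subset; limma, adjusted p = 0.00527). Gss, which encodes glutathione synthetase and was the only CpG-rich promoter of the 5, stood at 97.1 and 97.7 in Th9, at 88.7 and 83.8 in Th2, and in Th17 at 96.3 and 94.2, so that both Th2 libraries lay below the other 4 (difference from Th2 1.16 ± 0.17, adjusted p = 0.00353). Slc25a20, the carnitine carrier of mitochondria, was at 96.6 and 96.0 in Th9, at 85.3 and 85.4 in Th2, and in Th17 at 92.6 and 90.01 (1.06 ± 0.17, adjusted p = 0.00527). Ednrb, a receptor for endothelin, was at 98.0 and 89.9 in Th9 and at 74.2 to 85.5 in the other 4 libraries. Tmed1, a protein of vesicle transport, was at 90.8 and 90.5 in Th9 and at 37.8 to 67.2 in the others. The peaks compared could differ in width. At Gss they spanned 772 and 1081 bp in Th9 and 1735 and 1727 bp in Th2. At Slc25a20 they spanned 612 and 692 bp in Th9 and 1673 and 1723 bp in Th2. At Vcam1, Tmed1 and Ednrb the widths in Th9 and Th2 overlapped. Whether width bears on these differences was not tested. The call at Ednrb was lost without Th9 replicate 1 (adjusted p = 0.115) and with normal scores (0.0553), and that at Tmed1 without Th9 replicate 3 (0.0501) and with normal scores (0.0582).

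The 5 largest in favour of Th2 were at Tagln3, Trim6, Msc, Zfp948 and Elmo1, all CpG-poor. Zfp948, a zinc finger gene, stood at 88.4 and 85.2 in Th9, at 97.0 and 97.2 in Th2, and in Th17 at 90.8 and 90.5, and Th2 lay above all other libraries (-0.99 ± 0.17, adjusted p = 0.00645). Elmo1, which activates the GTPase Rac in cell movement and engulfment, was at 62.8 and 60.7 in Th9 and at 77.0 to 89.1 in the others, with Th9 lowest. Msc, which encodes the repressor musculin, was at 77.8 and 52.6 in Th9, at 89.7 and 92.3 in Th2, and in Th17 at 87.6 and 84.6. Tagln3, a relative of the actin-binding protein transgelin, was at 73.5 and 69.4 in Th9, at 90.6 and 96.6 in Th2, and in Th17 at 37.0 and 36.5, so the subsets did not overlap. Trim6, a ubiquitin ligase, was at 53.3 and 41.2 in Th9 and 94.2 and 81.1 in Th2. The call at Elmo1 was lost without Th9 replicate 1 or Th2 replicate 3 (adjusted p = 0.0717 and 0.0657), and that at Msc without Th9 replicate 3 or Th2 replicate 3 (0.0976 and 0.0935). That at Tagln3 was lost without Th9 replicate 1, Th9 replicate 3 or Th2 replicate 3 (0.0594 to 0.0666) and with normal scores (0.0571), and that at Trim6 without Th9 replicate 1, Th9 replicate 3 or Th2 replicate 1 (0.0702 to 0.0879). Those at Tagln3 and Trim6 were also lost when the peak over or nearest the start was read in place of the highest (0.0875 and 0.0502).

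Between Th9 and Th17, 134 promoter regions were higher in Th9 and 55 lower, against backgrounds of 3.19% and 2.99%. These are 1.19% and 0.488% of the promoter regions, both below the background. With promoters scaled among themselves the counts were 110 and 99. Leaving out Th9 replicate 1 and Th9 replicate 3 gave 74 and 83 higher with 38 and 18 lower, leaving out Th2 replicate 1 and Th2 replicate 3 gave 170 and 185 with 80 and 84, and leaving out Th17 replicate 1 and Th17 replicate 3 gave 21 and 18 with 9 and 7.

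The largest differences in favour of Th9 were at Hbb-bt, Ccr8, Pcgf5, Zfp296 and Pdcd1lg2. At Ccr8, Pcgf5 and Pdcd1lg2 Th9 and Th2 lay together above Th17. At Zfp296 and Hbb-bt Th2 lay between the others. There it was also called above Th17 (log2 difference 0.82 and 0.81, limma, adjusted p = 0.0148 and 0.0296). Ccr8, a chemokine receptor of Th2 and other CD4 T cells, stood at 94.5 and 93.4 in Th9, at 94.8 and 94.4 in Th2, and in Th17 at 59.1 and 49.9. The log2 difference was 1.57 ± 0.18 for Th9 (adjusted p = 0.000202) and 1.60 ± 0.18 for Th2 (adjusted p = 5.62e-05). Pdcd1lg2, which encodes the PD-1 ligand PD-L2, was at 91.3 and 88.1 in Th9, at 92.6 and 91.2 in Th2, and in Th17 at 57.2 and 13.2 (1.35 ± 0.19, adjusted p = 0.000736). The CpG-poor region of Pcgf5 was at 92.2 and 90.2, 91.2 and 89.5, and 10.9 and 35.6 (1.56 ± 0.19, adjusted p = 0.000279). Zfp296, a CpG-rich zinc finger promoter, was at 91.0 and 91.6 in Th9, at 82.4 and 80.4 in Th2, and in Th17 at 23.3 and 41.6, in 3 steps that did not overlap (1.502 ± 0.20, adjusted p = 0.000498). Hbb-bt, an adult beta-globin gene of red cells, was at 95.5 and 89.5 in Th9, at 87.0 and 69.2 in Th2, and in Th17 at 25.6 and 33.6 (1.704 ± 0.22, adjusted p = 0.000427). With the peak over or nearest the start the difference was 0.37 and was not called (adjusted p = 0.268).

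The largest in favour of Th17 were at Gcnt1, Hsdl1, Disp1, Pou2af1 and Tha1. Gcnt1, the enzyme that starts core 2 O-glycans of selectin ligands, stood at 56.8 and 37.5 in Th9, at 74.4 and 61.3 in Th2, and in Th17 at 92.0 and 92.1 (-1.51 ± 0.19, adjusted p = 0.000391). The CpG-poor region of Hsdl1, a gene related to hydroxysteroid dehydrogenases, was at 79.4 and 53.3 in Th9, at 24.3 and 10.4 in Th2, and in Th17 at 91.7 and 94.6, with no overlap of the subsets (-1.26 ± 0.21, adjusted p = 0.00213). Disp1, which releases Hedgehog proteins from cells, was at 78.8 and 60.4 in Th9, at 89.99 and 92.0 in Th2, and in Th17 at 93.2 and 92.3 (-1.18 ± 0.19, adjusted p = 0.00159). Pou2af1, the coactivator OBF-1 of octamer-binding factors, was at 92.4 and 85.2 in Th9, at 96.0 and 96.1 in Th2, and in Th17 at 97.9 and 98.5. Tha1, a threonine aldolase gene, was at 91.8 and 91.2 in Th17 and at 58.7 to 75.7 in the other 4. The call at Pou2af1 was lost without Th17 replicate 3 (adjusted p = 0.0542), and that at Tha1 without Th9 replicate 1, Th17 replicate 1 or Th17 replicate 3 (0.0727 to 0.117) and with normal scores (0.0559).

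Between Th2 and Th17, 129 promoter regions were higher in Th2 and 164 lower, against backgrounds of 5.13% and 2.49%. These are 1.14% and 1.46% of the promoter regions. The direction again rested on the scaling, with 166 higher and 76 lower when promoters were scaled among themselves, 179 and 113 with GC content removed, 113 and 75 with median centring and 118 and 94 with normal scores. Leaving out Th2 replicate 1 and Th2 replicate 3 gave 120 and 65 higher with 54 and 107 lower, leaving out Th17 replicate 1 and Th17 replicate 3 gave 32 and 20 with 18 and 17, and leaving out Th9 replicate 1 and Th9 replicate 3 gave 173 and 160 with 215 and 192.

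In favour of Th2 the 5 largest were at Tagln3, Ccr8, Pdcd1lg2, Pcgf5 and Spx, of which Ccr8, Pdcd1lg2 and Pcgf5 were also among the largest between Th9 and Th17. Spx, which encodes the peptide spexin, stood at 83.4 and 70.4 in Th9, at 88.6 and 88.9 in Th2, and in Th17 at 29.6 and 14.0 (1.32 ± 0.19, adjusted p = 0.000385). Tagln3 had the largest difference of this contrast toward Th2, 1.704 ± 0.23 (adjusted p = 0.000309), which was not called with the peak over or nearest the start (0.0782). In favour of Th17 they were at Hsdl1, Txk, Tha1, Gcnt1 and Ift27. Hsdl1 differed by -1.85 ± 0.21 (adjusted p = 7.26e-05), the largest difference of any promoter region in the 3 contrasts. Txk, a Tec family kinase of T cells, was at 83.0 and 76.9 in Th9, at 63.9 and 62.2 in Th2, and in Th17 at 93.5 and 90.1, in 3 steps that did not overlap (-1.31 ± 0.19, adjusted p = 0.000369). Ift27, a protein of intraflagellar transport, was at 98.0 and 96.2, 93.7 and 90.5, and 99.4 and 98.8. Its highest peaks spanned 2391 and 4109 bp in Th2 and 1144 and 1120 bp in Th17. At Hsdl1, Txk and Gcnt1 the Th17 peaks were instead wider than those of Th2. The call at Ift27 was lost with the length-weighted mean of a region's peaks (limma, adjusted p = 0.594). That at Tha1 was lost without Th17 replicate 3 (0.0674).

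**Figure D5:**
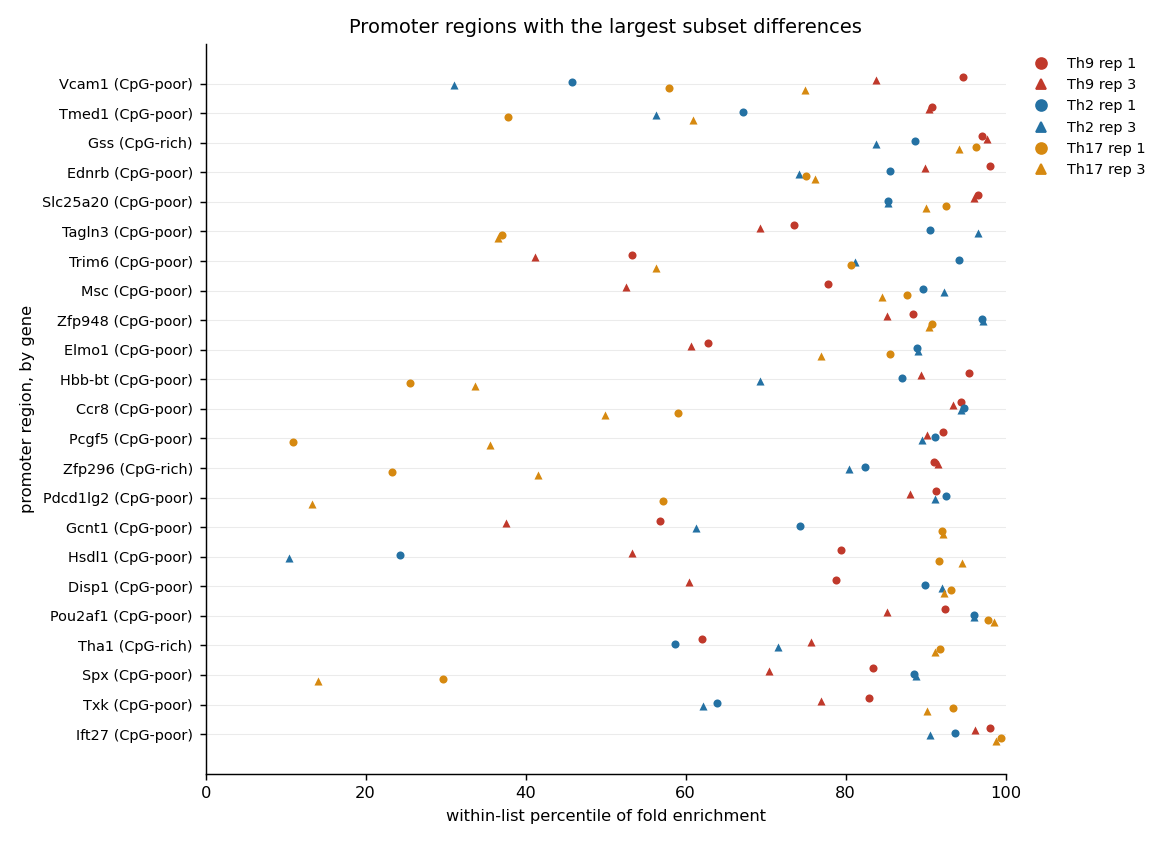
Within-list percentile of fold enrichment (horizontal axis, 0 to 100) in each of the 6 libraries for the 23 promoter regions named as the largest differences, in the order of the contrasts, with the CpG class beside each gene. Circles are replicate 1 and triangles replicate 3; at Ccr8, Pcgf5 and Pdcd1lg2 the Th9 and Th2 libraries lie at 88.1 to 94.8 and the Th17 libraries at 10.9 to 59.1.

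Some regions set 1 subset apart from both others in the same direction. Th17 was below both others at 34 promoter regions and above both at 13, Th9 above both at 17 and below both at 5, and Th2 below both at 54 and above both at 12. As shares of the promoter regions these were 0.302%, 0.115%, 0.151%, 0.0444%, 0.479% and 0.107%. No background over all regions tested is given for these sets, so the counts do not set promoters apart from other regions. Of the 54 regions low in Th2, 40 were CpG-rich, beside 69.5% of all promoter regions. In the other sets these were 13 of the 34 low in Th17 and 6 of the 17 high in Th9. They were 0 of the 5 low in Th9, 2 of the 13 high in Th17 and 2 of the 12 high in Th2. The regions low in Th2 included Nop56, Lsm2, Rps15a and Psmd8, and also Sik3, Hdac5, Podnl1 and Gss. These were picked from the 54 after their values were seen, and no shared function was tested. Membership of these sets moved with the scaling. With promoters scaled among themselves, 8 of the 54 regions low in Th2, 25 of the 34 low in Th17, 12 of the 13 high in Th17, 8 of the 17 high in Th9, 5 of the 5 low in Th9 and 11 of the 12 high in Th2 remained, and the sets then held 8, 31, 25, 8, 22 and 30 regions in all. With normal scores 11, 30, 5, 3, 3 and 3 remained, in sets of 12, 49, 5, 4, 3 and 3. With median centring 16, 28, 12, 16, 2 and 5 remained, in sets of 18, 31, 15, 38, 3 and 6. The following genes of these sets were chosen after their values were seen. The 5 regions low in Th9 were at Msc, Disp1, Vps50, Fxyd4 and Zfp994. Regions low in Th17 also included Tnfrsf9, the T cell costimulator 4-1BB, at 88.4 and 82.0 in Th9, at 91.5 and 89.9 in Th2, and in Th17 at 64.3 and 66.7, and Havcr2, the inhibitory receptor TIM-3, at 91.6 and 87.6, 89.8 and 90.5, and 77.6 and 22.8. Regions high in Th9 included Id1, an inhibitor of helix-loop-helix factors, at 94.1 and 93.9 in Th9, at 87.9 and 85.9 in Th2, and in Th17 at 85.5 and 81.2. Its call against Th2 (adjusted p = 0.0493) held in 6 of 16 alternatives and was lost on leaving out any of the 6 libraries. At Havcr2 both calls were lost without Th17 replicate 3 (0.162 and 0.173) and that against Th9 also without Th9 replicate 1 (0.0508). At Tnfrsf9 the call against Th9 was lost on leaving out any Th9 or Th17 library (0.0896 to 0.265) and with promoters scaled among themselves (0.0873), and that against Th2 without Th17 replicate 1 (0.0518).

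Called members of the T cell and interferon gene lists numbered 1 of 15 regions for T cell receptor signalling, 3 of 21 for T helper transcription factors, 1 of 18 for receptors, 2 of 6 for cytokines, 2 of 8 for feedback inhibitors and 1 of 14 for interferon response, beside 5.17% of all promoter regions. Lta, the gene of lymphotoxin alpha, stood at 98.9 and 99.1 in Th9, at 92.8 and 91.6 in Th2, and in Th17 at 90.8 and 89.1, so that Th9 lay above all other libraries (Th9 against Th2 1.05 ± 0.17, adjusted p = 0.00478; against Th17 1.16 ± 0.17, adjusted p = 0.00092). Both calls held in all 16 alternatives tried. Il21 was at 86.3 and 78.6 in Th9, at 95.2 and 88.3 in Th2, and in Th17 at 94.2 and 90.2, and was called lower in Th9 than Th17 (-0.72 ± 0.20, adjusted p = 0.0428). That call held in 9 of 16 alternatives, and was lost with normal scores (0.0749), with median centring (0.0533) and on leaving out any Th9 or Th17 library (0.106 to 0.301). Socs2 and Socs3, which curb signalling through cytokine receptors, were called higher in Th9 than Th2 (0.70 ± 0.17, adjusted p = 0.0374, and 0.77 ± 0.17, adjusted p = 0.0237). With promoters scaled among themselves neither was called (0.107 and 0.058), nor with GC content removed (0.0738 and 0.0546). With normal scores only 1 of these calls was left. The call at Socs2 was also lost on leaving out any of the 6 libraries (0.0593 to 0.165), and that at Socs3 without Th9 replicate 1, Th9 replicate 3 or Th2 replicate 3 (0.0697 to 0.104). Socs2 was at 96.3 and 94.8 in Th9 against 85.1 to 91.2 in the others.

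Among the transcription factors, Batf encodes an AP-1 family factor that the study gives as required in several lineages, Th2, Th9 and Th17 among them. Its promoter stood at 89.5 and 87.9 in Th9, at 80.7 and 79.7 in Th2, and in Th17 at 91.4 and 88.4. It was called lower in Th2 than Th17 (-0.67 ± 0.18, limma, adjusted p = 0.0291). That call was lost with median centring (0.0652) and on leaving out any Th2 or Th17 library (0.0639 to 0.191). Irf4, its partner at composite sites, was at 92.1 and 91.6 in Th9, at 87.1 and 84.8 in Th2, and in Th17 at 83.9 and 76.9. It was called higher in Th9 than Th17 (0.69 ± 0.18, limma, adjusted p = 0.0317). That call was lost with normal scores (0.0572) and with the length-weighted mean of a region's peaks (0.0856). It was also lost on leaving out any Th9 or Th17 library (log2 difference 0.56 to 0.80). Stat5b, which acts below the IL-2 receptor, was at 90.3 and 89.4 in Th9, at 75.5 and 77.1 in Th2, and in Th17 at 88.3 and 83.5, and was called higher in Th9 than Th2 (0.75 ± 0.19, adjusted p = 0.0374). It was lost with normal scores (0.0644), with promoters scaled among themselves (0.0541), with GC content removed (0.0596) and on leaving out any of the 6 libraries (0.0543 to 0.186). Lat, the adaptor that links the T cell receptor to its downstream enzymes, was at 91.9 and 87.9, 91.1 and 88.0, and 96.6 and 94.8, and Th17 was above both others (adjusted p = 0.0347 and 0.013). The call against Th9 held in 8 of 16 alternatives and that against Th2 in 12, and both were lost without Th17 replicate 1 or Th17 replicate 3 (0.103 to 0.244). Irf1 was called higher in Th9 than Th2 (0.71 ± 0.17, adjusted p = 0.0361), in 7 of 16 alternatives and in none that left out a library (0.0532 to 0.199).

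Promoters of cytoplasmic ribosomal proteins stood lower in Th2, with list medians of 93.0 and 92.8 there against 95.8 and 95.8 in Th9 and 96.2 and 95.2 in Th17. Of their 73 regions, 3 were called higher in Th9 than Th2, Rps15a and Rpl3 among them, and 8 lower in Th2 than Th17. The median log2 difference of Th2 from Th17 was -0.38 and that of Th9 from Th2 0.38, beside -0.08 and 0.11 over all promoter regions, and both kept their sign under the 4 other scalings. With promoters scaled among themselves they were -0.22 and 0.23. The 3 calls against Th9 fell to 0 there and with normal scores, and the 8 against Th17 to 4 there and to 2 with median centring. The same order held for glycolysis promoters between Th9 and Th2, with a median difference of 0.36, where only a region of Pfkm and Senp1 was called, lower in Th2 than Th17 (adjusted p = 0.0427), and under none of the 4 other scalings. In the other housekeeping lists 1 of 77 regions of mitochondrial ribosomal proteins, 2 of 56 of the respiratory chain, 2 of 33 of the proteasome, 1 of 19 of tRNA synthetases, 0 of 31 of DNA replication and 0 of 18 of sterol synthesis were called. The order was not particular to ribosomal proteins. In these lists the median difference of Th9 from Th2 ran from 0.13 for DNA replication to 0.31 for the proteasome. That of Th2 from Th17 ran from -0.13 for sterol synthesis to -0.25 for the proteasome. With promoters scaled among themselves the first ran from -0.01 to 0.21 and the second from -0.02 to -0.12. Of the developmental factors Hoxb4 was called higher in Th9 than Th17 and Sox17 higher in Th17 than in both others, and both starts lay under a peak in 2 libraries. The call at Hoxb4 was lost with normal scores and with promoters scaled among themselves (adjusted p = 0.0542 and 0.0507), and all 3 calls were lost without Th17 replicate 1 or Th17 replicate 3 (0.0552 to 0.217). Of the markers of other cell types, Syt1, a synaptic vesicle protein of neurons, was called higher in Th2 than Th17, and not without Th17 replicate 3 (adjusted p = 0.0542).

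The words found in called promoters differed by direction. The ETS word was found in 49 of the 203 regions higher in Th9 than Th2 (24.1%) and in 24.4% of the 164 lower in Th2 than Th17, but in 1 of the 134 higher in Th9 than Th17 (0.746%), beside 17.2% of all promoter regions. Of the 33 regions lower in Th9 than Th2, 8 (24.2%) held the GATA word and 7 (21.2%) the AP-1 and BATF word, beside 9.99% and 7.48% of CpG-poor promoters. The CREB and ATF word was found in 1.20% of the 583 called promoters and in 3.65% of those not called. These shares follow the calls, and those between Th9 and Th2 and between Th2 and Th17 changed in direction with the scaling as given above.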

How the data were processed

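ATAC-seq libraries of Th9, Th2 and Th17 cells, 2 each, were analysed from 6 peak lists. Per the study's methods and processing notes, the authors trimmed paired-end reads with Trim Galore 0.4.3, aligned them to mm10 with Bowtie2, removed duplicates with Picard, left out mitochondrial and low-quality alignments, and called broad peaks per library with MACS2 2.1.0 without a control library or local background. The cutoff is not given in the sources used here. The deposited lists hold, for each peak, a fold enrichment averaged over the peak, which is a ratio, and the -log10 p-value and -log10 q-value of the authors' caller. They hold no read counts.

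The members and lists were chosen with earlier results of these data known. Starts came from GENCODE M21 on GRCm38, the assembly of mm10, and a member was read by its highest peak per library. Log2 fold was quantile normalised over 48805 regions and fitted with limma 3.58.1 (R 4.3.3) with a trended variance, Benjamini-Hochberg adjustment over all regions and a threshold of 0.05. Named genes were the 5 called promoter regions with libraries of the compared subsets not overlapping and the largest difference, in each direction of each contrast, the 5 highest and 5 lowest by mean percentile, and members of the gene lists; unnamed gene models were left out. Promoters of 250 bp before to 50 bp after a start were searched for 12 words. Other scalings, measures, thresholds, list lengths and left-out libraries were tried as alternatives. Whole-list differences used exact sign-flip tests over libraries. Scripts were tested on simulated data.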

Additional observations from a re-analysis of the deposited data

Results flagged for a closer look

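The promoter rule covered chromosomes 1 to 19. On chromosome X, which no comparison above used, 398 regions under 5000 bp met the same rule. The median of all their percentiles, with each library counted separately, was 87.1. For chromosomes 1 to 19 the value of 92.3 is a different measure, the median over regions of the mean percentile. The peak lists had no control library to set them against.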

How the results depend on the processing

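Counts of called promoters moved with the processing, and the cause was not tested. Removing GC content, scaling promoters among themselves and reading the peak at the start were chosen after seeing the data. Th9 above Th2 (203) became 101 with GC content removed, 46 with normal scores and 51 with promoters scaled among themselves, and Th9 below Th2 (33) became 53, 15 and 104, and 13 with median centring. Th9 below Th17 (55) became 99 and Th2 below Th17 (164) became 76 with promoters scaled among themselves, and the latter 94 with normal scores and 75 with median centring. With peaks of -log10 q of at least 5, which rebuilt the regions, Th9 above and below Th17 gave 59 and 25, and Th2 above and below Th17 gave 57 and 102. Leaving out 1 library at a time gave 15 to 95 and 2 to 25 for Th9 above and below Th2, 18 to 185 and 7 to 84 for Th9 against Th17, and 20 to 173 and 17 to 215 for Th2 against Th17, where a subset with 1 library is assumed to vary like the others.

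Deviations of same-numbered replicates correlated across regions at r = 0.20 between Th9 and Th2, and at 0.011 and 0.002 between each of these and Th17, and with 2 replicates a subset the numbers were not taken to pair the samples. With the replicate number as a block, Th9 below Th2 gave 64 and Th2 below Th17 gave 257, and all 30 named differences stayed called. No named difference reversed. Of 453 refits, 427 passed the threshold and 26 did not. These totals leave out named differences that could not be refitted where peaks were removed and regions rebuilt. With -log10 q of at least 5 only 7 of the 30 could be refitted, and with lists of equal length 26.

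With 5 libraries the sign-flip test cannot go below 0.0625. Leaving out 1 library gave differences of 20.7 to 22.8 percentile points from distal regions, 629 to 677 bp in width, 7.60 to 8.23 points between CpG classes and 4.19 to 4.41 points for divergent promoters, each positive in all libraries left. The rule kept 9551 regions at the stricter threshold, 11032 with lists of equal length and 11928 with no width limit. Without read counts, low folds cannot be separated from low coverage.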
